A study of Mus musculus with 7 samples.

Results

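The 35 genes described here are markers of T cells, B cells and natural killer (NK) cells, chosen by name from the lineages they mark and found, all 35, among the 23347 genes counted in the mouse livers. Livers came from male mice on a C57BL/6 background that had eaten CDAHFD, an amino acid-defined high-fat diet deficient in choline that brings on steatohepatitis, for 15 weeks. The control group was 4 B4galt1 flox/flox mice (WT in the sample labels), whose B4galt1 gene is flanked by recombination sites and intact. The other group was 3 mice labelled B4galt1 hep-/- (B4galt1-HKO in the sample labels), in which Cre under the albumin promoter, active in hepatocytes, is meant to delete B4galt1, the gene for a galactosyltransferase of the Golgi. Cells that do not use the albumin promoter, lymphocytes included, are meant to keep the gene, and mice on chow were not analysed here. The comparison asks whether lymphocyte transcripts in the steatotic liver differed between the groups.

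Lymphocytes carry receptors that sort them into lineages. T cells display a receptor whose CD3 chains pass its signal to the kinases Lck and Zap70, B cells signal through Cd79a and Cd79b, and NK cells read the surface of other cells through families of lectin-like and immunoglobulin-like receptors. The liver holds many of them between its hepatocytes, and cytotoxic T cells accumulate there in fatty liver disease. In RNA from whole liver, fewer cells of a type and less RNA per cell cannot be told apart.

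Of the 35 genes, 1 rose, Klrk1, which encodes the activating receptor NKG2D of NK cells and cytotoxic T cells, and 0 fell. The test was edgeR's quasi-likelihood method, Benjamini-Hochberg adjusted over all 15179 genes with enough counts, and a call needed both an absolute log2 fold change above 0.58 and an adjusted p below 0.05. Across those genes 8.0% were called higher and 7.83% lower, 15.8% in all. Foxp3 and Ncr1 had too few counts, so 33 members were tested. Unless another unit is named, values are CPM, counts divided by a library size that edgeR's TMM method had scaled. All log2 fold changes are those of mice labelled B4galt1 hep-/- over B4galt1 flox/flox mice.

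The 250 bases before the annotated start are shown for Klrk1, the member called, for Il7r, the sole member whose groups separated downward, and for Cd3d and Cd3g, adjacent genes of the T cell receptor complex read from opposite strands. They are RefSeq sequences of GRCm38.p6, a build earlier than the GRCm39 that the submitters' processing notes name for the counts, and each is written 5′ to 3′ along its gene. Capitals mark the letters TGTGGT (a core of RUNX sites), AGGAAG (a core of ETS sites) and AGGTGT (a core of T-box sites) or their reverse complements. The windows lie at chr6:129623865-129624114 on the minus strand (Klrk1), chr15:9529877-9530126 on the minus strand (Il7r), chr9:44981536-44981785 on the plus strand (Cd3d) and chr9:44980432-44980681 on the minus strand (Cd3g).
Klrk1: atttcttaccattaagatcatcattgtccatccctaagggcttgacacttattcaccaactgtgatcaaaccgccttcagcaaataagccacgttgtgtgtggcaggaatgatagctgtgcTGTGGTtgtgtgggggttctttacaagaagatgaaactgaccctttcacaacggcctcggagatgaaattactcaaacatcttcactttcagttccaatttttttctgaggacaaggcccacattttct
Il7r: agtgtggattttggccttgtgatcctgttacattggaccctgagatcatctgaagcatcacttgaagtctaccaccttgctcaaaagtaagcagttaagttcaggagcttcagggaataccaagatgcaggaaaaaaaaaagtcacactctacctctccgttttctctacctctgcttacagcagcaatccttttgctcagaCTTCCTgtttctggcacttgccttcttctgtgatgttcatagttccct
Cd3d: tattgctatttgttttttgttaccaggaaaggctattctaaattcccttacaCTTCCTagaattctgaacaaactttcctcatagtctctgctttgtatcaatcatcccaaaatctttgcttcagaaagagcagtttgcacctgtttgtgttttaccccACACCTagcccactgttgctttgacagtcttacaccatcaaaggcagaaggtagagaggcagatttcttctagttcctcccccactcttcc
Cd3g: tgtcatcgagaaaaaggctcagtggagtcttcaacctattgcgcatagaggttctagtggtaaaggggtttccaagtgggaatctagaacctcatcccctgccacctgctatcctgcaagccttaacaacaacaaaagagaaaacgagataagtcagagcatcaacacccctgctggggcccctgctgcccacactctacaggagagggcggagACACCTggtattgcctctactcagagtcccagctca
A window was matched by symbol for 25 of the 35 members. TGTGGT or its complement stood in 11 of the 25 (44%), against 15.9% of 27025 genes with a window. AGGAAG stood in 14 (56% against 32.3%) and AGGTGT in 9 (36% against 13.6%). RUNX letters occurred in the windows of the cytotoxic genes Nkg7, Gzma, Gzmb, Prf1, Klrk1, Klrb1c and Ncr1 and in those of Lck, Zap70, Tigit and Cxcr6. These matches describe the letters and were not tested, and ETS and RUNX factors are known, as background, to act in blood cell lineages.

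Members were low in these livers. Their summed counts made up between 0.00896% and 0.0190% of a mouse's total, which lay between 37838654 and 39668509 counts for the controls and between 30608271 and 34586588 for the other group. The level that 3 counts give was between 0.0690 and 0.0987 CPM. Hepatocyte genes identified the tissue, with 8 listed genes, Alb and Apoa1 among them, summing to at least 83594 CPM in every mouse. The targeted gene, B4galt1, stood at 50.6 ± 2.01 CPM in the controls (SD, n = 4). Replicates 1, 2 and 3 labelled B4galt1 hep-/- gave 28.4, 23.9 and 53.7 CPM, so that replicate 3 goes against its label. The B4galt1 means did not differ beyond the spread (exact permutation test, two-sided, p = 0.143, where 0.0286 is the smallest p possible). Mitochondrially encoded genes took 5.79% ± 1.70 (SD, n = 4) and 19.7% ± 4.58 (SD, n = 3) of counts. With those genes left out of the fit, Klrk1 stayed the sole member called, at a log2 fold change of 1.44 (adjusted p = 0.0105, edgeR). Any other part of them in the lymphocyte values was not tested.

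On the scale of FPKM, which divides by gene length, the immunoglobulin joining chain gene Jchain was the highest member with a mean of 11.5 over the 7 mice. It was followed by the granule gene Nkg7 at 6.03, Cd3g at 5.14, the interleukin receptor gene Il7r at 4.15, Zap70 at 3.21 and Cd8a at 2.94. At the other end were the co-stimulator Icos at 0.188, the NK receptor Ncr1 at 0.131 and the regulatory T cell factor Foxp3 at 0.0525. Cd8a stood above Cd4, at 0.501. In the plot of every member by mouse, the groups overlapped for most genes.

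**Figure D1:**
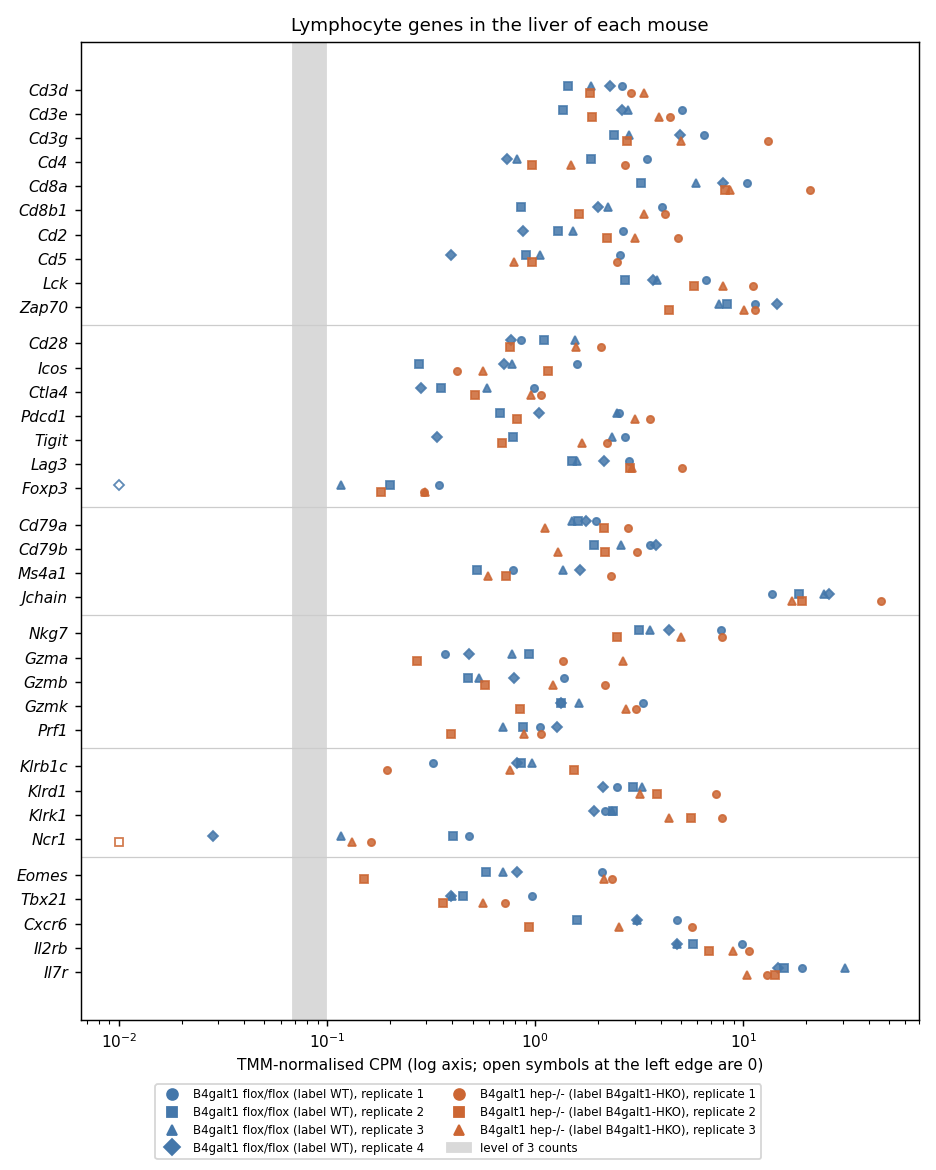
TMM-normalised CPM (log axis) of the 35 lymphocyte genes in each of 7 livers, with genes in the order of their roles (T cell receptor and signalling, co-stimulation and checkpoints, B and plasma cells, granule proteins, NK receptors, effector factors and cytokine receptors). Blue symbols are B4galt1 flox/flox mice, orange symbols mice labelled B4galt1 hep-/-, and the grey band is the level of 3 counts. Klrk1 and Lag3 separate upward and Il7r downward, while the other 32 overlap.

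Taken as a list, 24 of the 33 tested members had a log2 fold change above 0, compared with 51.3% of all tested genes, and the median was 0.39 compared with 0.02. The range was -0.68 (Il7r) to 1.44 (Klrk1). An unadjusted p under 0.05 was reached by 6 members, beside 32.9% of all genes. They were 5 upward (Klrk1, Lck, Cd2, Klrd1 and Lag3, beside 16.8% of all genes) and 1 downward (Il7r, beside 16.1%). The groups did not overlap upward in 2 members, beside 13.6% of all genes, and downward in 1, beside 15.0%. The 95% intervals were wide: they lay above a log2 change of -1 for 20 members and below 1 for 4, so a doubling was outside the interval for 4 of the 33 genes. Without B4galt1 hep-/- replicate 1 the median of the same 33 genes was 0.02, and without B4galt1 hep-/- replicate 2 or control replicate 1 it was 0.61.

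**Figure D2:**
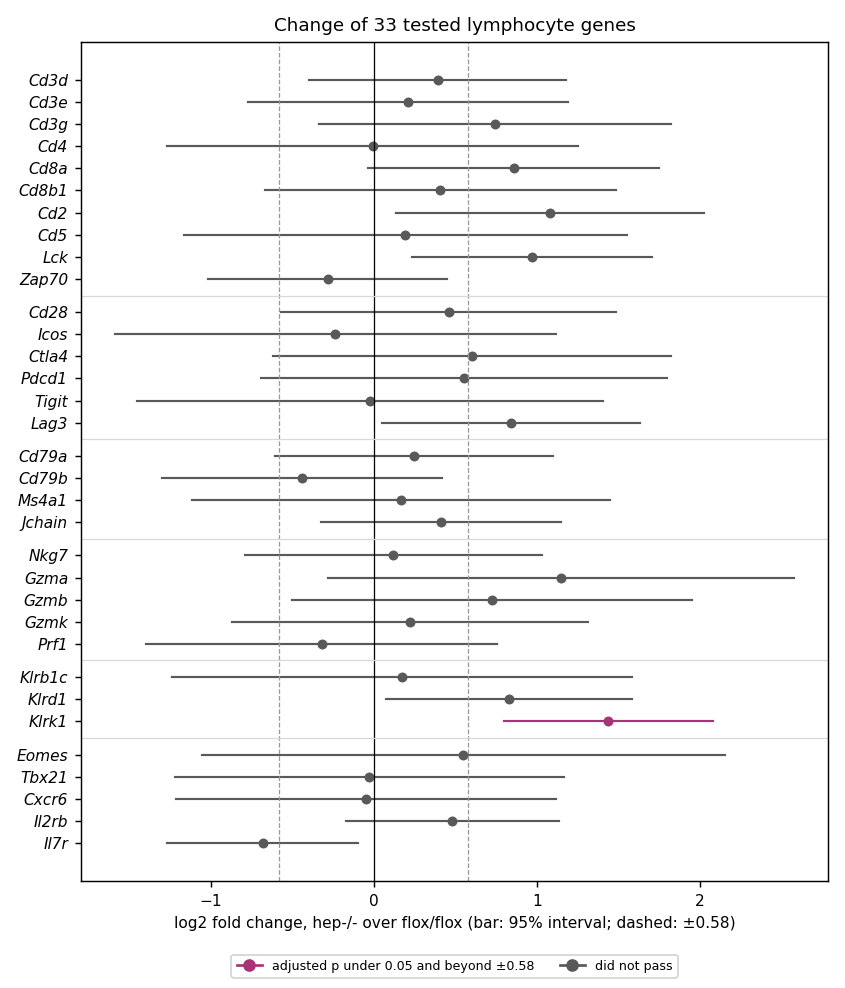
Log2 fold change (horizontal axis, points) with its 95% interval (bars) of the 33 tested lymphocyte genes, mice labelled B4galt1 hep-/- over B4galt1 flox/flox mice, grouped by role in the same order as in the plot by mouse. The dashed lines mark the threshold of 0.58 in each direction, and the interval of Klrk1, at 0.80 to 2.08, is the one drawn as called.

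Among the 4 NK cell receptor genes, Klrk1 rose, Klrd1 and Klrb1c did not pass the test and Ncr1 was not tested. Klrk1 (NCBI gene 27007) was measured at 2.16, 2.36, 2.34 and 1.92 CPM in B4galt1 flox/flox replicates 1 to 4 and at 7.92, 5.58 and 4.37 CPM in replicates 1 to 3 labelled B4galt1 hep-/-. Every mouse of the second group exceeded every mouse of the first, replicate 3 with its undiminished B4galt1 included. On the log2 scale the change was 1.44 with a standard error of 0.29, or 2.71-fold (Benjamini-Hochberg adjusted p = 0.0105, edgeR). It was 1.61 (adjusted p = 0.0109) without that replicate. Leaving out B4galt1 hep-/- replicate 1, the highest, gave 1.17 (adjusted p = 0.0455). A block for the replicate number gave 1.34 (adjusted p = 0.0522, edgeR), which did not pass.

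Klrd1 encodes CD94, the partner chain of NKG2 receptors other than NKG2D, and adjoins Klrk1 in the NK gene complex with 0 protein-coding genes between them in RefSeq. Its levels were 2.48, 2.96, 3.26 and 2.12 CPM in the controls and 7.40, 3.86 and 3.19 CPM in the other group, where the lowest mouse fell below the highest control. The log2 fold change was 0.83 (95% interval 0.08 to 1.58, adjusted p = 0.117 from edgeR's test). Klrb1c, the NK1.1 antigen gene, averaged 0.739 ± 0.284 CPM (SD, n = 4) and 0.830 ± 0.675 CPM (SD, n = 3), and the interval of its log2 fold change ran from -1.24 to 1.59. Ncr1, the gene for NKp46, a receptor found on NK cells but not on them alone, was near the limit of the depth. It had 21, 16, 5 and 1 counts in the controls and 5, 0 and 4 in the other group, and a count of 0 allows up to 0.0905 CPM in that library. The groups overlapped, with means of 0.257 and 0.0980 CPM.

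**Figure D3:**
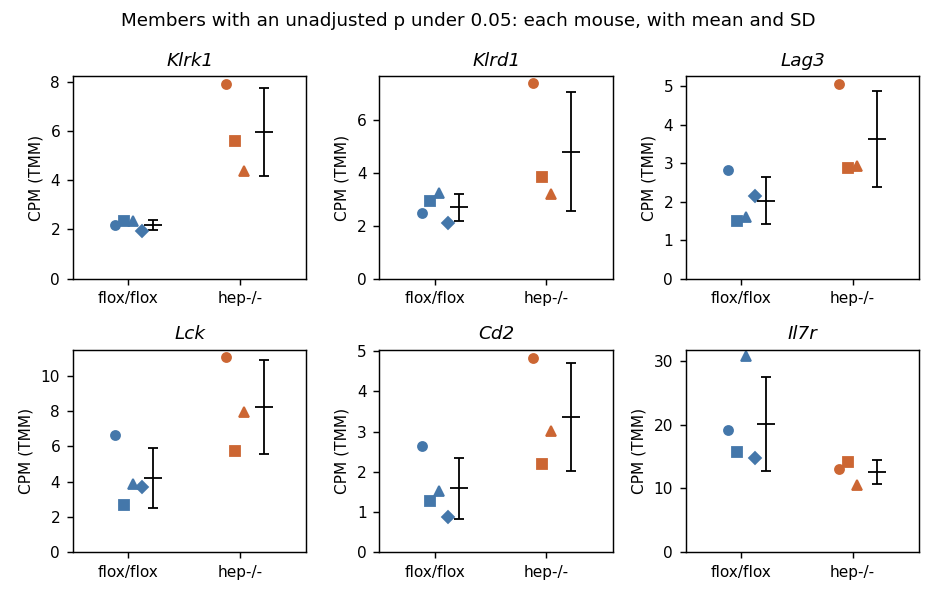
TMM-normalised CPM (vertical axes from 0) of the 6 members with an unadjusted p under 0.05 in each mouse, with the group mean and SD beside the points. B4galt1 flox/flox mice are blue, mice labelled B4galt1 hep-/- orange, and symbols give replicates 1 (circle), 2 (square), 3 (triangle) and 4 (diamond). Klrk1 and Lag3 separate upward and Il7r downward. Klrd1, Lck and Cd2 overlap at 1 or more mice.

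The 10 genes of the T cell receptor, its co-receptors and early signalling included 0 called by edgeR (2 at an unadjusted p under 0.05, Lck and Cd2), with 8 log2 fold changes above 0 and a median of 0.40. DESeq2 called Lck, and limma's voom with sample quality weights called Lck, Cd2 and Cd8a. Across all genes tested, those methods called 11.2% and 10.2% higher. Cd3g, a CD3 chain and the highest of the group per length, gave 6.48, 2.38, 2.83 and 4.97 CPM in the controls. In the mice labelled B4galt1 hep-/- it gave 13.2, 2.77 and 5.0 CPM, so replicate 1 alone stood above the controls. Its log2 fold change of 0.74 (adjusted p = 0.318, edgeR) became -0.12 without that mouse. Its neighbours Cd3d and Cd3e, the other CD3 chains, had log2 fold changes of 0.39 and 0.21.

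Cd4, the co-receptor of helper T cells and the lowest of the group per length, was 3.45, 1.86, 0.820 and 0.735 CPM in the controls and 2.69, 0.965 and 1.48 CPM in the other mice. The second group lay within the range of the first, and the log2 fold change was -0.01 (95% interval -1.27 to 1.25). Cd8a, a chain of the co-receptor of cytotoxic T cells, averaged 6.91 ± 3.06 CPM (SD, n = 4) and 12.5 ± 7.17 CPM (SD, n = 3), a log2 fold change of 0.86 (adjusted p = 0.167, edgeR). Cd8b1, the gene of its partner chain and its neighbour, had a log2 fold change of 0.41 with an interval of -0.67 to 1.49.

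Lck, the kinase bound to both co-receptors, was 6.62, 2.69, 3.87 and 3.67 CPM in the controls and 11.1, 5.76 and 7.96 CPM in the mice labelled B4galt1 hep-/-. Control replicate 1 lay inside the range of the other group. The log2 fold change was 0.97 (adjusted p = 0.0702, edgeR), and without control replicate 1 it was 1.28 with an adjusted p of 0.0243, which passes. The adhesion receptor gene Cd2 gave 1.08 on the log2 scale (adjusted p = 0.107) with all mice and 1.45 (adjusted p = 0.0454) without control replicate 1, both from edgeR. Zap70, the kinase that acts after Lck, had a log2 fold change of -0.28 and an interval of -1.02 to 0.45, and Cd5, a damper of receptor signalling, of 0.19 and -1.17 to 1.55. Lck and Zap70 each overlap another RefSeq gene, and whether the counting used strand is not given in the sources used here.

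Of the 7 genes of co-stimulation, checkpoints and regulatory T cells, edgeR called 0 of the 6 tested (1 at an unadjusted p under 0.05), with a median log2 fold change of 0.51, DESeq2 called 0, and voom with sample quality weights called Lag3. Lag3, an inhibitory receptor that binds MHC class II and the highest of the group per length, was 2.83, 1.51, 1.59 and 2.15 CPM in the controls. It was 5.06, 2.87 and 2.93 CPM in the mice labelled B4galt1 hep-/-, each of them above each control, with the nearest mice at 2.87 and 2.83 CPM. The log2 fold change was 0.84 with a standard error of 0.36 (adjusted p = 0.129, edgeR). Cd4, which adjoins Lag3, did not share that separation.

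Pdcd1, the inhibitory receptor gene of chronically stimulated T cells, and Ctla4, which competes with Cd28 for its ligands, had log2 fold changes of 0.55 and 0.60 with intervals that spanned 0. Cd28, the co-stimulatory receptor, had 0.46, Icos, its inducible relative, -0.24, and Tigit, an inhibitory receptor of T and NK cells, -0.02. Tigit overlaps Zbtb20 and Mir568 in RefSeq. Cd28, Ctla4 and Icos lie side by side on the chromosome. Foxp3 was at 15, 8, 5 and 0 counts in the controls and 9, 6 and 9 counts in the other mice, so that regulatory T cells could not be followed through this gene at this depth.

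Of the 4 genes of B and plasma cells, 0 were called by edgeR, DESeq2 or voom and 0 had an unadjusted p under 0.05 in edgeR, with a median log2 fold change of 0.21. Jchain, which joins secreted antibodies into polymers and is made by plasma cells, was 13.8, 18.6, 24.3 and 25.7 CPM in the controls and 46.0, 19.1 and 17.2 CPM in the other group. One mouse, B4galt1 hep-/- replicate 1, stood above all others. The log2 fold change was 0.41 (adjusted p = 0.419, edgeR) with that mouse and -0.19 without it. Ms4a1, the CD20 gene of mature B cells and the lowest of the group per length, was 0.782, 0.527, 1.36 and 1.64 CPM in the controls and 2.31, 0.724 and 0.592 CPM in the others, again highest in replicate 1. Cd79a and Cd79b, the signalling chains of the B cell receptor, had log2 fold changes of 0.24 (95% interval -0.61 to 1.10) and -0.44 (-1.30 to 0.42).

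Of the 5 granule genes, 0 were called by any of these tools and 0 had an unadjusted p under 0.05 in edgeR, with a median of 0.22. Nkg7, a granule membrane protein of cytotoxic cells, was 7.80, 3.16, 3.56 and 4.41 CPM in the controls and 7.92, 2.47 and 5.03 CPM in the other mice. Replicate 1 was the highest mouse of each group and replicate 2 the lowest. Prf1, the pore-forming perforin, was 1.06, 0.878, 0.703 and 1.27 CPM in the controls and 1.07, 0.392 and 0.888 CPM in the others, with a log2 fold change of -0.32 (95% interval -1.39 to 0.76). The granzyme genes, serine proteases that enter target cells, had log2 fold changes of 1.15 (Gzma), 0.72 (Gzmb) and 0.22 (Gzmk), and the largest of these had an interval of -0.28 to 2.58. Gzma ran from 0.271 to 2.63 CPM within the mice labelled B4galt1 hep-/- alone, and it overlaps Cdc20b in RefSeq.

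The 5 effector factors, homing and cytokine receptors included 0 called by edgeR, DESeq2 or voom and 1 with an unadjusted p under 0.05 in edgeR, Il7r, with a median log2 fold change of -0.03. Il7r, the receptor for the survival cytokine interleukin 7 on naive and memory T cells and innate lymphoid cells, went the other way from most members. It was 19.2, 15.7, 30.7 and 14.7 CPM in the controls and 13.0, 14.1 and 10.5 CPM in the mice labelled B4galt1 hep-/-. Every mouse of the second group lay below every control, the nearest by 14.1 against 14.7 CPM. The log2 fold change was -0.68 with a standard error of 0.27 (adjusted p = 0.103, edgeR), which did not pass, and it stayed between -0.80 and -0.40 under 18 alternative settings. Il2rb, the shared receptor chain for interleukins 2 and 15, gave 0.48 on the log2 scale (95% interval -0.17 to 1.14). Tbx21, the T-bet factor and the lowest of this group per length, was 0.966, 0.452, 0.398 and 0.396 CPM in the controls and 0.714, 0.362 and 0.559 CPM in the others, and the groups overlapped. The related factor Eomes had 0.55, and the homing receptor Cxcr6 -0.05, on the log2 scale with intervals beyond 1 in both directions. Cxcr6 overlaps Fyco1 in RefSeq.

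Levels varied widely within each group, and the same mice were high or low for many members. Control replicate 1 was the highest of the 4 controls for 24 of the 35 members, and for 15 of the 17 T cell members of the first and second role groups. B4galt1 hep-/- replicate 1 was the highest of its 3 mice for 29 members, and replicate 2 the lowest for 25, including 15 of the 17. The summed members came to between 89.2 and 143 CPM in the controls and to 210, 99.6 and 124 CPM in B4galt1 hep-/- replicates 1 to 3.

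Ratios within a mouse, which remove a shared rise or fall, were taken for 4 pairs of genes. The log2 ratio of Cd8a to Cd3e was 1.22 ± 0.257 (SD, n = 4) and 1.79 ± 0.597 (SD, n = 3), with an exact permutation p of 0.2 (0.514 adjusted over 4 ratios). Cd79a to Cd3e differed by -0.11 (exact permutation p = 0.83, adjusted 0.886), Ncr1 to Cd3e by -0.98 (p = 0.257, adjusted 0.514) and Cd3e to Ptprc, the leukocyte antigen CD45, by -0.11 (p = 0.886, adjusted 0.886). All 4 tests were two-sided, with 0.0286 as the smallest p that 4 against 3 mice allow. With 4 ratios, a single one that separated the groups completely would have an adjusted p of 0.114, so no ratio could pass alone. The ratio of Ncr1 rests on 0 to 5 counts in the mice labelled B4galt1 hep-/- and on the 0.1 CPM added before the logarithm.

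Other genes of the same lineages moved in both directions. Of 24 other T cell genes that were tested, edgeR called 1, which fell, and the median was 0.37 on the log2 scale. Across all tested genes 8.0% were called higher and 7.83% lower. At an unadjusted p under 0.05 were 4 upward and 1 downward, beside 16.8% and 16.1% of all tested genes. Themis, which tunes T cell receptor signalling, fell from 20.4 ± 7.0 to 7.54 ± 3.86 CPM (log2 fold change -1.43, adjusted p = 0.0283, edgeR). Its control level compares with 2.96 CPM for Cd3e. Control replicates 1 to 4 gave 11.8, 22.5, 18.6 and 28.5 CPM of Themis, lowest in the mouse that was highest for most T cell members. In the other group it was 11.3, 3.59 and 7.73 CPM, highest in replicate 1, as most members were. The Themis call was lost without control replicate 2, 3 or 4 or B4galt1 hep-/- replicate 2 or 3, at adjusted p of 0.0509 to 0.0730. Lcp2, the adaptor SLP-76, had a log2 fold change of 0.10.

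Of 13 tested other B and plasma cell genes, 1 rose and 0 fell, beside 8.0% and 7.83% of all tested genes, and the median was 0.43. At an unadjusted p under 0.05 were 4 upward and 1 downward, beside 16.8% and 16.1% of all tested genes. Pou2af1, a coactivator of B and plasma cells, was 0.882 ± 0.193 CPM (SD, n = 4) and 2.20 ± 0.573 CPM (SD, n = 3). Its log2 fold change was 1.32 and its adjusted p 0.0446 in edgeR, a call lost at 0.0705 to 0.124 without any mouse other than B4galt1 hep-/- replicate 3. Cd38 and Cd22, which had the most counts of that list, had log2 fold changes of 0.03 and -0.24. Of 14 tested other NK and cytotoxic genes, 4 upward and 0 downward had an unadjusted p under 0.05, beside the same 16.8% and 16.1%. The list's median was 0.67. By the rule for calls, 1 rose and 0 fell, beside 8.0% and 7.83% of all tested genes. The gene was Klre1, an NK cell lectin-like receptor, at 0.225 ± 0.0893 and 1.36 ± 1.09 CPM, with a log2 fold change of 2.57 (adjusted p = 0.0239, edgeR) that was no longer called without control replicate 2 or 4 or B4galt1 hep-/- replicate 1 (adjusted p of 0.0563 to 0.118). The most counts of that list were those of Ccl5, a chemokine of cytotoxic cells, and the integrin gene Itga1, whose log2 fold changes of 1.01 and -0.47 did not pass (adjusted p = 0.134 and 0.279, edgeR). Ccl5 was called higher under 5 of 18 alternatives, with adjusted p from 0.0135 (voom, 1.57) to 0.0471. Among them were the fits without control replicate 1 (1.49, adjusted p = 0.0268) and without B4galt1 hep-/- replicate 2 (1.38, adjusted p = 0.0434).

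Among 21 tested signals that attract or maintain lymphocytes, 3 fell and 1 rose, beside 7.83% lower and 8.0% higher of all tested genes. At an unadjusted p under 0.05, 4 were lower and 1 higher, beside 16.1% and 16.8% of all tested genes. Il2rg, the common gamma chain with which Il7r and Il2rb form receptors, fell from 11.4 ± 2.54 to 5.50 ± 0.581 CPM (log2 fold change -1.05, adjusted p = 0.0168, edgeR), and every mouse labelled B4galt1 hep-/- lay below every control. Il15, the cytokine that sustains NK and memory CD8 T cells, rose from 2.72 ± 0.347 to 5.42 ± 1.57 CPM (0.99, adjusted p = 0.0422, edgeR). Cxcl12 and Cxcl16, chemokines that bind Cxcr4 and Cxcr6, fell by 0.81 and 0.74 on the log2 scale (adjusted p = 0.0261 and 0.0495, edgeR). The Il15 call was lost without any mouse other than B4galt1 hep-/- replicate 3 (adjusted p of 0.0615 to 0.143), the Cxcl16 call without any other than control replicate 4 (0.0685 to 0.119), and the Cxcl12 call without control replicate 2 or 3 or B4galt1 hep-/- replicate 1 or 2 (0.0557 to 0.0665). The adhesion molecule gene Vcam1 had 0.19. Of 12 tested ligands of co-stimulatory, checkpoint and NK receptors, 1 fell and 0 rose. At an unadjusted p under 0.05, 4 were lower and 3 higher, beside 16.1% and 16.8% of all tested genes. The groups did not overlap downward in 3 and upward in 3, beside 15.0% and 13.6% of all tested genes. Lgals9, the galectin that binds the checkpoint receptor Havcr2, fell from 268 ± 23.8 to 134 ± 22.5 CPM (log2 fold change -1.0, adjusted p = 0.00946, edgeR), while Fgl1, a liver protein that binds Lag3, had 0.62 (adjusted p = 0.242, edgeR). All ± values are SDs of 4 and 3 mice.

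The summed levels of macrophage genes and of dendritic cell genes lay apart between the groups. Of 13 macrophage and monocyte genes, 7 fell, 0 rose and 6 did not pass, where 7.83% of all tested genes were called lower. The median of the list was -0.83 on the log2 scale, and its genes summed to 1072 to 2110 CPM in the controls and 556 to 694 CPM in the other mice. Those with the 6 smallest adjusted p-values were Gpnmb, Cd68, C1qb, Adgre1, Trem2 and Vsig4, from -0.83 (Trem2) to -1.88 (Adgre1). The Adgre1 value includes control replicate 3 at 71.3 CPM, beside 20.1 to 25.6 CPM in the other controls. It ran from -2.15 to -1.27 over 18 alternatives. Of 7 pan-leukocyte genes 2 fell, Itgb2 (-1.22) and Laptm5 (-0.90), whereas Ptprc had 0.37 (adjusted p = 0.231, edgeR). Ptprc was called higher under 1 of 18 alternatives, over which its log2 fold change ran from 0.17 to 0.60. Of 6 dendritic cell genes 1 rose, Clec9a, a receptor of the dendritic cells that present antigen to CD8 T cells, by 1.39 on the log2 scale (adjusted p = 0.00656, edgeR). At an unadjusted p under 0.05, 4 of the 6 were higher (Clec9a, Siglech, Flt3 and Zbtb46) and 0 lower, beside 16.8% higher and 16.1% lower of all tested genes, and the median was 0.65. Siglech, Flt3 and Zbtb46 did not pass the adjusted test (adjusted p of 0.0929 to 0.146, edgeR). Xcr1 and Cd209a had log2 fold changes of -0.76 and -0.01 (adjusted p = 0.424 and 0.994, edgeR). The 6 genes summed to 15.9 to 22.6 CPM in the controls and 34.1 to 38.1 CPM in the other mice, so the groups did not overlap. The median of the lymphocyte members, 0.39, lay on the other side of 0 from that of the macrophage list, and the difference between the lists was not tested. Of 4 tested neutrophil genes edgeR called 0 (1 at an unadjusted p under 0.05), and in the endothelial and hepatocyte lists 1 gene each fell, Kdr (-1.33) and Cyp2e1 (-1.32). The endothelial genes summed to 291 CPM in control replicate 3, beside 72.1 to 112 CPM in the other controls and 104 to 121 CPM in the mice labelled B4galt1 hep-/-. With 1 mouse left out, the calls of Trem2, Vsig4, Laptm5, Kdr and the macrophage gene Marco were lost without B4galt1 hep-/- replicate 3 or control replicate 3, and all but Laptm5 also without others, at adjusted p of 0.0550 to 0.110 in edgeR. The stellate cell, cholangiocyte and proliferation lists had 0 calls by edgeR, and 0 genes at an unadjusted p under 0.05. The part of any of these in the lymphocyte values was not tested.

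**Figure D4:**
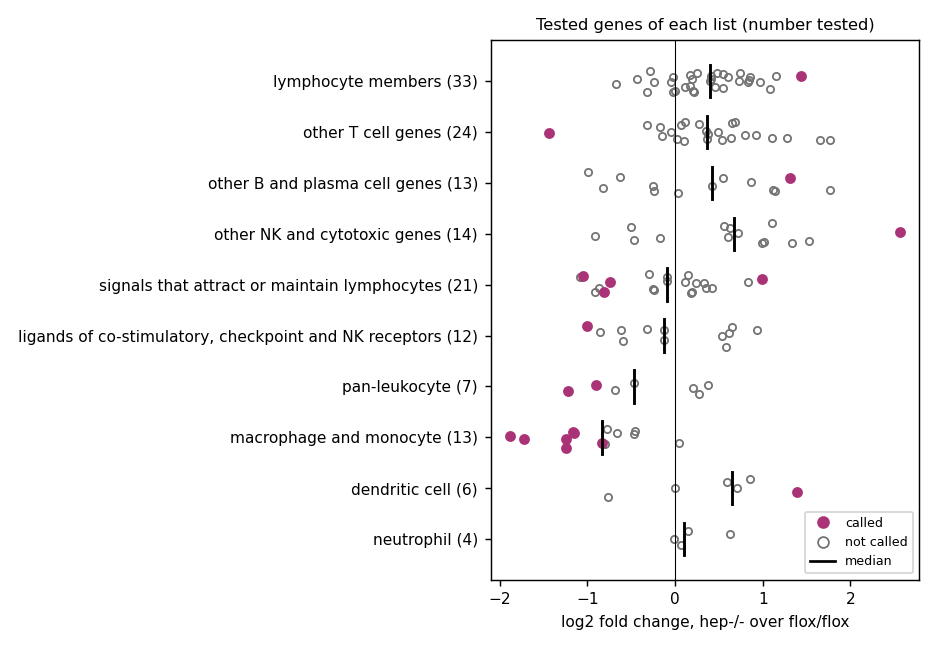
Log2 fold change (horizontal axis) of each tested gene of the lymphocyte members, of the other lymphocyte and signal lists, and of 4 lists for leukocytes (vertical axis, with the number tested). Filled points were called, open points were not, and black bars are list medians, which run from -0.83 for macrophages and monocytes to 0.67 for other NK and cytotoxic genes.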

How the data were processed

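Liver RNA of 7 mice, 4 of them B4galt1 flox/flox and 3 labelled B4galt1 hep-/-, was extracted with TRIzol and made into libraries with the VAHTS Universal V6 kit, 1 library per mouse. The submitters' processing notes name fastp, HISAT2, HTSeq, DESeq2, R 3.2.0 and the build GRCm39. The strand used in counting is not given in the sources used here. The authors deposited raw counts per gene, whole numbers that were not normalized, and FPKM values, which the authors scaled by gene length and by a total that includes mitochondrial transcripts. FPKM was used for levels between genes and as an alternative.

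Counts were tested with edgeR 4.0.16 in R 4.3.3 (filterByExpr with a minimum count of 10 and a minimum total of 15, TMM, quasi-likelihood test, group as the sole term, Benjamini-Hochberg adjustment). Thresholds followed the study's methods. The code was tested on simulated data. The common biological coefficient of variation was 0.301. No library copied another, the smallest chi-square among the 21 pairs being 60.3 for each gene. Ratios were log2 of CPM + 0.1 and were compared by a two-sided exact permutation test. That libraries are separate mice rests on the labels and the study's methods, and intervals from few mice are imprecise.

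The members, lists and thresholds were chosen with earlier results of these data known. The text names every member, with values in each mouse for members called, those whose groups did not overlap and the highest and lowest of each role group per length, B4galt1, up to 6 called genes of each other list, the pair of genes with the most counts in each wider lymphocyte list, and the genes of the ratios. Per-mouse values of Lck and Klrd1 were added after their values were seen. Alternatives were RLE and upper-quartile normalization, DESeq2 1.42.0, other filters, mitochondrial genes left out, limma 3.58.1 on log2 of FPKM with 1 or 0.1 added, voom with quality weights per sample, a block for the replicate number, and each mouse left out. Constant-region genes of T cell receptors and antibodies, and 3 other listed genes (Cxcl11, Zfp683 and Cd70), were not analysed here, and 1 gene of the other T cell list is not reported here. RefSeq tables of GRCm38.p6 gave promoter windows, neighbours and overlaps. At 8 members (Lck, Zap70, Tigit, Foxp3, Ms4a1, Gzma, Eomes and Cxcr6) another RefSeq gene overlaps, and Klr family genes resemble one another, so their counts may be shared.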

Additional observations from a re-analysis of the deposited data

Results flagged for a closer look

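Of the 4 control mice, 1 stood apart for 3 members. Replicate 1 measured Gzmk, a granzyme of memory T cells, at 3.29 CPM beside 1.33 to 1.62 CPM in the other controls. Eomes, a factor of cytotoxic cells, was 2.09 CPM in that mouse beside 0.577 to 0.819 CPM, and its relative Tbx21 was 0.966 CPM beside 0.396 to 0.452 CPM. Mice labelled B4galt1 hep-/- ran from 0.844 to 3.05 CPM for Gzmk, from 0.151 to 2.34 CPM for Eomes and from 0.362 to 0.714 CPM for Tbx21. Outside the members, control replicate 3 had 71.3 CPM of the macrophage gene Adgre1, beside 20.1 to 25.6 CPM in the other controls. The same mouse had 98.2 CPM of the adhesion gene Vcam1, beside 36.6 to 40.6 CPM. Among 142 other tested genes of the lists for lymphocytes, their signals and other cell types, 11 had a control mouse that stood apart in the same way, and in 5 of them it was replicate 3 with the highest level. That mouse had 48.4 CPM of the endothelial gene Lyve1 (2.74 to 5.0 CPM in the other controls), 90.9 CPM of Clec4g (19.9 to 28.4 CPM) and 35.1 CPM of Pecam1 (8.35 to 11.7 CPM), both endothelial as well. It also had 28.9 CPM of Cd48 (15.6 to 16.3 CPM) and 2.11 CPM of the neutrophil gene Retnlg (0.621 to 0.706 CPM), and it was lowest for Pax5 at 0.609 CPM and Ccl19 at 0.586 CPM. Replicate 1 was highest for Xcr1 at 1.63 CPM and lowest for Gzmm at 0.276 CPM, and replicate 4 was lowest for Ccr7 at 1.92 CPM and Krt19 at 1.41 CPM. The distance of a single mouse from the other 3, by Dixon's criterion, drew attention to each, and chance does so for about 1 in 20 groups of 4.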

How the results depend on the processing

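The call of Klrk1 held under 17 of 18 alternatives, with log2 fold changes of 0.65 to 1.61 over all of them. The exception was the replicate block (1.34, adjusted p = 0.0522). Equal numbers did not mark paired mice: deviations from the group means correlated at -0.34, -0.03 and 0.08 for numbers 1 to 3. For unequal numbers they ran from -0.32 (control replicate 4 with B4galt1 hep-/- replicate 2) to 0.49 (control replicate 1 with B4galt1 hep-/- replicate 2). With the block, members called higher numbered 0 and genes called 1267, against 2404 without it, and Cd5 and Klrb1c turned to -0.12 and -0.014. Members called higher were 2 in DESeq2 and with a filter of 1 count in any mouse (Lck added) and 5 in voom with quality weights (Lck, Cd2, Cd8a and Lag3 added). They were 1 to 3 with a mouse left out, 3 (Lck and Cd2 added) without control replicate 1. Members called lower numbered 0 under all alternatives. Genes called fell to 885 without control replicate 2 and ranged to 2396, and were 3281 in DESeq2, 2987 in voom, 2821 with the filter of 1 count and 1246 with limma on log2(FPKM + 1) without a filter. FPKM settings shifted all genes by -0.12 to -0.13 on the log2 scale, and 17.6% to 26.3% of their calls were higher, against 50.5%. Uncalled values near 0 changed sign. Cd4 became 0.0082 with RLE, 0.018 with upper-quartile scaling, 0.0028 in DESeq2 and 0.27 in voom, and Tigit 0.0072 with upper-quartile scaling, 0.050 on log2(FPKM + 0.1) and 0.84 in voom. On log2(FPKM + 1), with and without a filter, and on log2(FPKM + 0.1), Lcp2 gave -0.036 and -0.042, Nkg7 -0.054 and -0.065, Ms4a1 -0.0029 and -0.059, and Cd38 -0.020 and -0.012, and Klrb1c gave -0.10 on the latter. In voom, Klrb1c was -0.78, Icos 0.17, Tbx21 0.28 and Cxcr6 0.51. With each mouse left out in turn, log2 fold changes that crossed 0 ranged as follows, none of them called with all mice: Cd38 -0.13 to 0.36, Cd3e -0.045 to 0.61, Cd3g -0.12 to 1.12, Cd4 -0.51 to 0.59, Cd5 -0.50 to 0.84, Cd79a -0.070 to 0.53. Likewise they ranged for Cxcr6 -0.88 to 0.38, Gzmk -0.11 to 0.63, Icos -0.77 to 0.28, Jchain -0.19 to 0.65, Klrb1c -0.63 to 0.63, Lcp2 -0.13 to 0.26. The rest ranged for Ms4a1 -0.71 to 0.49, Nkg7 -0.36 to 0.47, Prf1 -0.63 to 0.0049, Tbx21 -0.29 to 0.39, Tigit -0.41 to 0.40, Zap70 -0.56 to 0.033. B4galt1 ranged from -0.96, called without B4galt1 hep-/- replicate 3 (adjusted p = 0.0139), to -0.30. The log2 ratio differences ranged from -0.32 to 0.15 for Cd3e to Ptprc and from -0.57 to 0.39 for Cd79a to Cd3e. The calls of Il2rg, Itgb2, Adgre1, C1qb and Cd68 were lost under 1 of 18 alternatives, limma on log2(FPKM + 1) without a filter, at adjusted p of 0.0608 to 0.121. Other calls were lost more often, left-out mice included: Cxcl16 under 14 of 18 alternatives, Il15 under 11, and Pou2af1 and Kdr under 10. Themis, Trem2 and Marco lost theirs under 7, Klre1 under 7 of 17, Vsig4 under 6, Cxcl12 under 5 and Laptm5 under 4. The causes were not tested. Over 1094 gene values, 926 kept their direction and side of the threshold, 94 lost a call, 14 gained one and 60 changed sign. Depth limits Foxp3 and Ncr1, which have 21 counts at most in a mouse.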
